A study of Mus musculus with 6 samples.

Results

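The 10 FGF and ERK feedback genes described here are Fgfr1, Fgfr2, Spry2, Spry4, Spred1, Dusp6, Etv4, Etv5, Egr1 and Ier3. They were chosen by name as receptors and immediate targets of FGF signalling through the kinase ERK, with earlier results of these data known. All 10 were matched among the 55401 genes of each expression table. With Rbbp4 overexpressed, Spry2 and Fgfr1 rose and Spry4 fell. With Rbbp7 overexpressed, Spry4, Dusp6, Etv4, Etv5, Spry2 and Fgfr1 each had higher values than both control libraries, with none of these differences past the adjusted threshold. Spry4 was 2.34 TPM ± 0.14 (SD, n = 2) in the first line and 6.59 TPM ± 0.21 (SD, n = 2) in the second, and among the tested members it alone differed between the lines at an adjusted p under 0.05. Each of these calls rested on all 6 libraries, since leaving out a single library raised its adjusted p above 0.05, while the size of the difference stayed close.

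FGF ligands bind FGF receptors at the cell surface, and the signal runs through adaptors, RAS, RAF and MEK to the kinase ERK. ERK then switches on genes that damp the same route: the Sprouty and Spred proteins hold back signalling above ERK, and the phosphatase DUSP6 removes the activating phosphates from ERK itself. Etv4 and Etv5, which encode ETS transcription factors of the PEA3 family, and the immediate early genes Egr1 and Ier3 are further targets. In mouse embryonic stem cells (mESCs) autocrine FGF4 drives this route towards differentiation, and blocking it holds the cells in the naive state.

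Poly(A) RNA was sequenced from 6 libraries of 46C cells, an mESC line, to ask how more of the histone-binding protein RBBP4 or its close homolog RBBP7 alters expression. All cells carried a biotin ligase, and each group had 2 libraries. The control cells stably carried the biotin tag alone. The cells labelled Biotin-Rbbp4_oe (Rbbp4 OE) and Biotin-Rbbp7_oe (Rbbp7 OE) carried lentiviral, biotin-tagged Rbbp4 or Rbbp7. By the study's methods the lines were drug-selected after infection, and whether a line was a clone is not given in the sources used here. All 6 libraries, controls included, came from medium with 15% serum, 1000 U leukemia inhibitory factor, 3 µM of the GSK3 inhibitor Chir99021 and 1 µM of PD0325901, an inhibitor of MEK. The levels below are therefore those of cells held under a block placed directly above ERK. The labels do not say that replicates were separate cultures, so p-values measure only the spread between these libraries, which may be technical.

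Values are TPM, a measure of transcript number scaled for length and set to the same total in every library, so genes can be compared per length within a library while sequencing depth is unknown. Rbbp4 reached 271 TPM ± 0.87 (SD, n = 2) in Rbbp4 OE against 147 TPM ± 0.69 (SD, n = 2) in control, and Rbbp7 reached 736 TPM ± 16.5 (SD, n = 2) in Rbbp7 OE against 238 TPM ± 1.0 (SD, n = 2), as the labels state. All 7 pluripotency markers had at least 1 TPM in every library and summed to 3356 to 3602 TPM, while all 5 primitive endoderm markers stayed under 1 TPM in every library. The summed levels of the 5 trophoblast, 3 neural and 4 formative epiblast markers were 11.0 to 15.3, 5.41 to 7.37 and 32.5 to 40.2 TPM. The formative sums, mostly Dnmt3b, were 32.48 and 32.95 TPM in the controls. They were 40.20 and 39.31 TPM with Rbbp4 OE and 36.03 and 36.99 TPM with Rbbp7 OE. Of the trophoblast list, Eomes lay above both controls in both lines, and Cdx2 and Gata3 lay below them, none past the adjusted threshold. Eomes had 5.32 and 6.01 TPM in the controls and 10.57 and 11.19 TPM with Rbbp7 OE. Cdx2 had 5.49 and 4.88 TPM in the controls and 2.99 and 3.56 TPM with Rbbp7 OE. Gata3 had 1.29 and 0.83 TPM in the controls and 0.51 and 0.41 TPM with Rbbp7 OE. The 5 fibroblast markers summed to 4.48 and 5.59 TPM in the controls, 9.09 and 11.32 TPM with Rbbp4 OE and 15.51 and 8.75 TPM with Rbbp7 OE, with Postn at 0 in every library. Thy1 alone made up 8.87 and 10.8 TPM of the Rbbp4 OE sums. The sum was highest in Rbbp7 OE replicate 1, where Col3a1 had 6.39 TPM against at most 0.06 TPM in the other 5 libraries. In bulk RNA, fewer cells expressing a gene and less RNA per cell cannot be told apart.

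The members spanned a wide range of levels. By the mean over all 6 libraries, Etv5 had the highest level at 143 TPM, followed by Etv4 at 81.4, Spry2 at 50.0, Fgfr1 at 44.0, Dusp6 at 9.96, Ier3 at 5.49, Spred1 at 5.06, Spry4 at 4.33, Fgfr2 at 1.90 and Egr1 at 0.297 TPM. The ranges over libraries of Spry2 and Fgfr1 overlapped, as did those of Dusp6 and Ier3, those among Ier3, Spred1 and Spry4, and those of Spry4 and Fgfr2. Etv5, Etv4 and Egr1 did not overlap with any neighbour in this order. The 10 members summed to 308 and 334 TPM in the controls, 334 and 345 TPM with Rbbp4 OE and 373 and 375 TPM with Rbbp7 OE, and Etv4 and Etv5 together made up 62.2% to 67.2% of it. The sum was therefore highest in both Rbbp7 OE libraries, and the control and Rbbp4 OE sums overlapped.

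**Figure D1:**
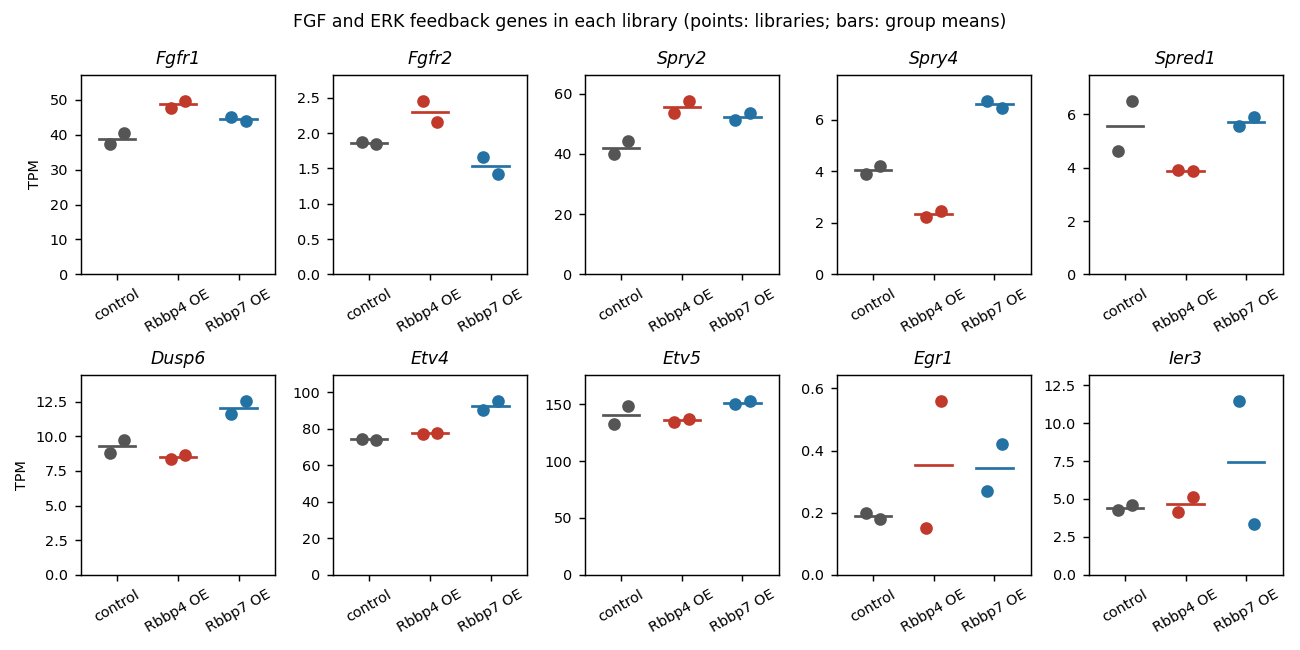
TPM of each of the 10 members (y axis from 0, own scale per gene) in the control, Rbbp4 OE and Rbbp7 OE groups; points are libraries and bars are means of 2. Spry4 lies at 2.24 and 2.44 TPM in Rbbp4 OE, below both controls, and at 6.74 and 6.44 TPM in Rbbp7 OE, above them, while Ier3 has a single high library at 11.48 TPM.

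Promoter sequence was at hand for Spred1, Fgfr2, Dusp6, Spry2, Etv5 and Ier3, in 7 windows (Etv5 has 2 annotated starts) from RefSeq on GRCm38.p6. Each window runs from 250 bases before to 50 bases after a transcription start. Some known response elements of this route were searched on both strands: TGAATGAA and TGAATGGA, bound by the repressor CIC that ERK relieves, the ETS site CCGGAAGT, and the CArG box of SRF. None of the 7 windows held any of these. Among 32851 promoter windows of the same length, 1.3%, 1.21%, 3.89% and 1.63% held the respective motif. The 6-letter core TGAATG, contained in both of these CIC motifs and searched after the windows had been read, was found in Dusp6, in 1 Etv5 window and in Ier3. Of all windows 12.7% held it. Because the core was added after these windows were read, its share in them cannot be tested against that figure. In the Etv5 window the core occurred 3 times, and no copy in any window was part of TGAATGAA or TGAATGGA. Other forms of the CIC site were not searched, so the windows may hold them. Windows of 3 genes are shown for the 250 bases before the start, 5′ to 3′ on the strand of the gene, with the core or its reverse complement in capitals: Dusp6 (chr10:99262981-99263230, plus strand) with 1 copy, the second Etv5 start (chr16:22438369-22438618, minus strand) with 3, and Spry2 (chr14:105896820-105897069, minus strand) with none. They are printed as examples of an ETS gene, a phosphatase gene and a Sprouty gene. The other Etv5 window held no core, and a link between these letters and expression level was not tested. A match describes letters only, and binding was not measured.
Dusp6: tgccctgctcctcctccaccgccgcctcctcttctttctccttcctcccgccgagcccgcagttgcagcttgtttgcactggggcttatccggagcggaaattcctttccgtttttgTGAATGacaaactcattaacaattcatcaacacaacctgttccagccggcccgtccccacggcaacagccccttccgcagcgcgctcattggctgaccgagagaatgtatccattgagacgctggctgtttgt
Etv5: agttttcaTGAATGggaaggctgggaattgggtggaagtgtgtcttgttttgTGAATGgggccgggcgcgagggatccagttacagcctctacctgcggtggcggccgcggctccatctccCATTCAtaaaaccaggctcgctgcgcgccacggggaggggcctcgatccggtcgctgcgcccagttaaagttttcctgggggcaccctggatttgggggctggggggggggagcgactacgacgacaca
Spry2: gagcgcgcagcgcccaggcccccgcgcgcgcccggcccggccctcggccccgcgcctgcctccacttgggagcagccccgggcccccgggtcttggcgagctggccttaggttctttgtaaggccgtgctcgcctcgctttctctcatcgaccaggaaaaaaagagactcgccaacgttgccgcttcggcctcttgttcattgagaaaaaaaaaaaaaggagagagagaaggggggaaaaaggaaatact

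The core began 133 bases before the start in Dusp6. In Etv5 its copies began 242, 198 and 129 bases before the start, the last on the opposite strand, and in Ier3 the single copy began 224 bases before it, also on the opposite strand. The GC content of the printed stretches ran from 56.4% in Dusp6 to 62.4% in Spry2.

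The differences between groups were tested with limma on log2(TPM + 1), in 1 fit over all 6 libraries. The fit covered the 14156 genes whose mean TPM reached 0.5, and p-values were adjusted by Benjamini-Hochberg over all of them. Of the 10 members 9 passed this filter, and Egr1 did not. Log2 fold changes below are on the log2(TPM + 1) scale, where the change of a gene with a low level comes out too small. The 2 overexpression lines share the same control libraries. With 2 libraries against 2, an exact two-sided permutation test of a single gene cannot go below p = 0.333, so the tests rest on the spread that limma pools across genes.

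At the study's thresholds, an adjusted p under 0.01 and a fold over 2, limma called 0 of the 9 tested members in each of the 3 comparisons. Over all genes tested, 0.516% were called in Rbbp4 OE against control, 0.0353% in Rbbp7 OE against control and 0.0494% in Rbbp4 OE against Rbbp7 OE. At an unadjusted p under 0.05 there were 3, 5 and 4 members in these comparisons, against 29.6%, 15.4% and 19.0% of all genes. With an adjusted p under 0.05 and no fold minimum, Rbbp4 OE against control had 3 member calls, of which 2 were higher and 1 was lower, where 11.4% of all genes were called, 3.29% higher and 8.07% lower. No member (0) was called in Rbbp7 OE against control, where 0.487% of genes were, and 1 was called between the lines, where 0.304% were. Libraries did not overlap between groups for 7, 7 and 8 of the 9 members, against 57.9%, 44.5% and 54.7% of all genes.

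In Rbbp7 OE the members lay mostly on 1 side. Of the 9 tested members, 5 were higher at an unadjusted p under 0.05 with limma, where 7.26% of all genes were. Without overlap, 6 of the 9 were higher, where 21.2% of all genes were. Among all genes with an unadjusted p under 0.05, 1028 of 2180 were higher, and among all genes without overlap 2995 of 6303. For the members these were 5 of 5 and 6 of 7. Because the members were chosen with earlier results of these data known, these shares cannot be tested against those of all genes. The median log2 fold change of the 9 members was 0.31 in Rbbp7 OE, beside -0.0037 over all genes. In Rbbp4 OE it was 0.061, beside -0.077, with 5 members positive and 4 negative. Between the lines it was -0.25, beside -0.082. Without Rbbp7 OE replicate 1, the library with the highest fibroblast sum, the log2 fold change in Rbbp7 OE was 0.56 for Spry4, 0.40 for Dusp6, 0.36 for Etv4, 0.34 for Spry2 and 0.17 for Fgfr1. In the remaining replicate Col1a2 had 0.79 TPM, against at most 0.11 TPM in the controls. The part of other cells in these values was not tested.

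**Figure D2:**
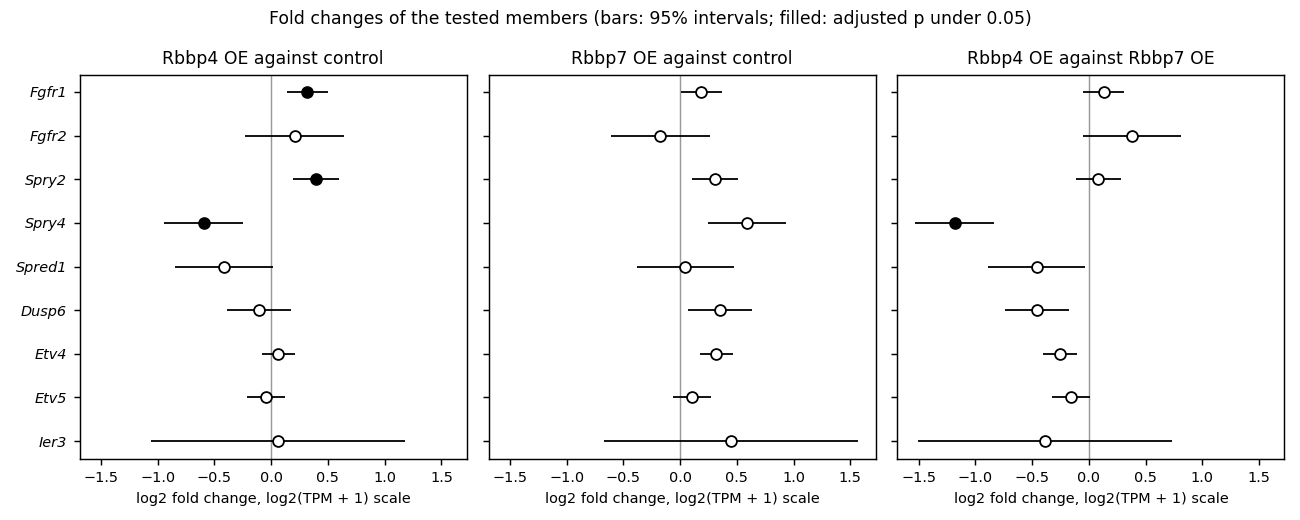
Log2 fold change on the log2(TPM + 1) scale (x axis) of the 9 tested members (y axis) in the 3 comparisons; bars are 95% limma intervals and filled points have an adjusted p under 0.05. Fgfr1, Spry2 and Spry4 are filled in Rbbp4 OE against control, no point in Rbbp7 OE against control, and Spry4 alone at -1.18 between the lines.

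The receptors came first. Fgfr1 (ENSMUSG00000031565, GRCm38 chromosome 8, 25513654 to 25575718, plus strand), the main FGF receptor gene of mESCs, had 37.4 and 40.4 TPM in the control libraries. The Rbbp4 OE libraries had 47.7 and 49.8 TPM and the Rbbp7 OE libraries 45.0 and 43.9 TPM. Both overexpression lines lay above both controls, with Rbbp4 OE highest. On the log2 scale the change was 0.32 in Rbbp4 OE (SE 0.074, adjusted p = 0.0476 with limma), a TPM ratio of 1.25. In Rbbp7 OE it was 0.19 (SE 0.074, adjusted p = 0.312 with limma), and the lines differed by 0.13 with a 95% interval of -0.049 to 0.31. The Rbbp4 OE difference kept its size, 0.26 to 0.37, when any 1 library was left out, but its limma adjusted p then lay between 0.073 and 0.216. An antisense gene, Gm16159, overlaps 164 exonic bases of Fgfr1 and was listed at 0 TPM in all 6 libraries.

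Fgfr2 (ENSMUSG00000030849, chromosome 7, 130162451 to 133123350, minus strand), the receptor gene more typical of primitive endoderm and trophoblast, was low. The controls had 1.88 and 1.84 TPM, the Rbbp4 OE libraries 2.46 and 2.15 TPM and the Rbbp7 OE libraries 1.66 and 1.42 TPM. The lines lay on opposite sides of the controls, with no overlap. Its log2 fold change was 0.21 in Rbbp4 OE (SE 0.18, adjusted p = 0.487 with limma) and -0.17 in Rbbp7 OE (SE 0.18, adjusted p = 0.703 with limma), and the difference between the lines was 0.38 (95% interval -0.054 to 0.81, adjusted p = 0.310 with limma). Over the alternative settings these values were 0.090 to 0.32, -0.26 to -0.069 and 0.16 to 0.55. This level is uncertain, because the annotated gene reaches across Ctbp2, a gene of 88.3 to 118 TPM on the same strand, and shares 210 exonic bases with it. The ratio of Fgfr1 to Fgfr2 TPM was 19.9 and 22.0 in the controls, 19.4 and 23.2 with Rbbp4 OE and 27.1 and 30.9 with Rbbp7 OE. It was thus highest in both Rbbp7 OE libraries and overlapped between the other groups.

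Among the feedback inhibitors, the Sprouty genes Spry2 and Spry4 moved apart in Rbbp4 OE. Spry2 (ENSMUSG00000022114, chromosome 14, 105891947 to 105896819, minus strand) had 40.0 and 44.3 TPM in the controls. Values with Rbbp4 OE were 53.5 and 57.7 TPM, and with Rbbp7 OE 51.3 and 53.5 TPM. Every overexpression library lay above both controls, and the lines were close to each other. The log2 fold change was 0.39 in Rbbp4 OE (SE 0.083, adjusted p = 0.0362 with limma), a TPM ratio of 1.32, and 0.31 in Rbbp7 OE (SE 0.083, unadjusted p = 0.0094, adjusted p = 0.188 with limma). Between the lines the difference was 0.084, with a 95% interval of -0.12 to 0.29. Leaving out any 1 library gave 0.32 to 0.46 in Rbbp4 OE, with a limma adjusted p of 0.0682 to 0.190.

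Spry4 (ENSMUSG00000024427, chromosome 18, 38586247 to 38601415, minus strand) had 3.88 and 4.21 TPM in the controls, 2.24 and 2.44 TPM with Rbbp4 OE and 6.74 and 6.44 TPM with Rbbp7 OE. The 3 groups did not overlap, with control between the lines. On the log2 scale the change was -0.59 in Rbbp4 OE (SE 0.14, adjusted p = 0.0499 with limma), a TPM ratio of 0.578, and 0.59 in Rbbp7 OE (SE 0.14, unadjusted p = 0.00591, adjusted p = 0.164 with limma), a TPM ratio of 1.63. The lines differed by -1.18 (SE 0.14, 95% interval -1.53 to -0.84, adjusted p = 0.0499 with limma), a TPM ratio of 0.355. Both calls lay at the edge of the threshold. Without 1 library the fold change stayed at -0.64 to -0.55 in Rbbp4 OE, with a limma adjusted p of 0.0675 to 0.189, and at -1.23 to -1.14 between the lines, with a limma adjusted p of 0.0771 to 0.298.

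A ratio of 2 genes within a library does not depend on the scaling of that library. Spry2 over Spry4 was 10.3 and 10.5 in the controls, 23.9 and 23.7 with Rbbp4 OE and 7.61 and 8.30 with Rbbp7 OE. The replicates of each group were close to each other, and the groups did not overlap. In Rbbp4 OE the 2 genes had been called in opposite directions from these same libraries, so the ratio is a description and not a separate test. The share of other gene pairs without overlap was not counted. The direction of the Spry4 difference was the same under every one of the 16 alternative settings that tested it, in all 3 comparisons, while its adjusted p lay under 0.05 in 4 of them for Rbbp4 OE and in 4 between the lines. A pseudocount of 5 gave the smallest Spry4 values, -0.30 in Rbbp4 OE and -0.66 between the lines.

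**Figure D3:**
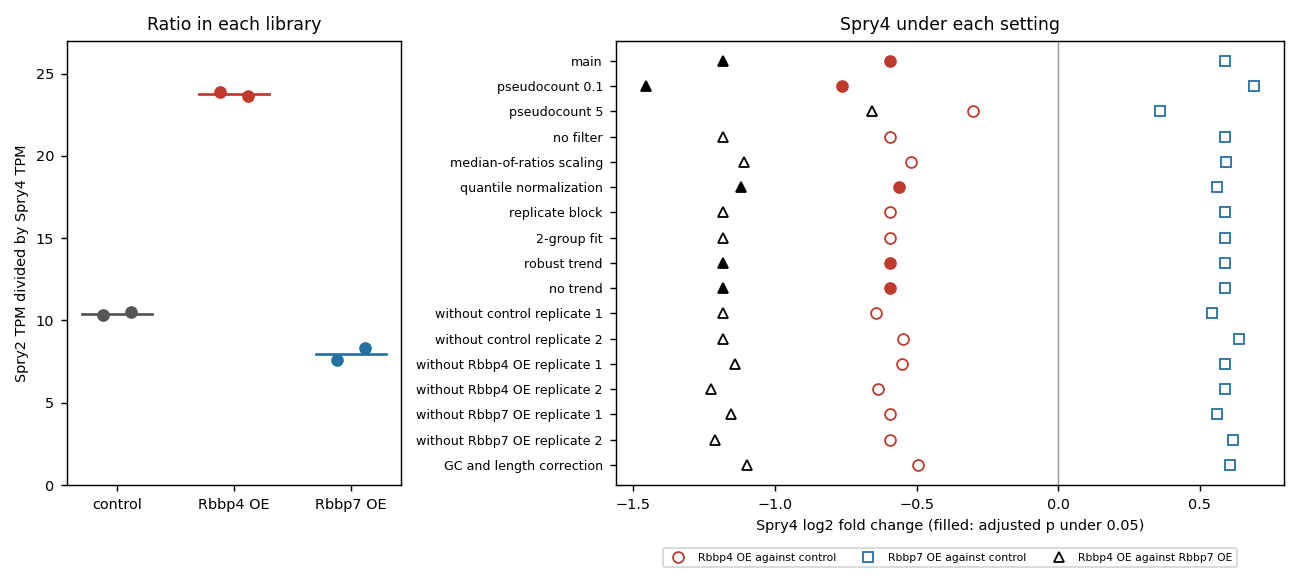
Left, Spry2 TPM divided by Spry4 TPM (y axis from 0) in each library, with bars at the means of 2; right, the Spry4 log2 fold change on the log2(TPM + pseudocount) scale (x axis) under each setting (y axis), with filled symbols at an adjusted p under 0.05. The ratio is 23.9 and 23.7 in Rbbp4 OE against 7.61 to 10.5 elsewhere, and no symbol crosses 0, while filled symbols occur in few settings.

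Spred1 (ENSMUSG00000027351, chromosome 2, 117121374 to 117182279, plus strand), a Sprouty-related inhibitor of RAS signalling, had 4.63 and 6.52 TPM in the controls. Its level was 3.91 and 3.86 TPM with Rbbp4 OE and 5.56 and 5.89 TPM with Rbbp7 OE. Rbbp4 OE was lower than all other libraries, and the Rbbp7 OE values lay between the controls. Its log2 fold change was -0.41 in Rbbp4 OE (SE 0.18, adjusted p = 0.184 with limma), -0.62 without control replicate 1 and -0.20 without control replicate 2, and it was -0.46 between the lines (95% interval -0.89 to -0.03, adjusted p = 0.240 with limma). In Rbbp7 OE against control it was 0.047, with a 95% interval of -0.38 to 0.48, and it turned to -0.16 without control replicate 1.

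Dusp6 (ENSMUSG00000019960, chromosome 10, 99263231 to 99267489, plus strand), the ERK phosphatase gene often used as a readout of this route, had 8.78 and 9.77 TPM in the controls. The Rbbp4 OE libraries had 8.39 and 8.65 TPM and the Rbbp7 OE libraries 11.6 and 12.6 TPM. Rbbp7 OE was the highest group and Rbbp4 OE lay just under the lower control. The log2 fold change was 0.35 in Rbbp7 OE (SE 0.12, unadjusted p = 0.0222, adjusted p = 0.237 with limma), a TPM ratio of 1.3. The Rbbp4 OE value was -0.11 (95% interval -0.39 to 0.17, adjusted p = 0.578 with limma), and 0.016 with quantile normalization. The lines differed by -0.46 (95% interval -0.74 to -0.18, adjusted p = 0.140 with limma).

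The PEA3-family ETS genes were the most abundant members. Etv4 (ENSMUSG00000017724, chromosome 11, 101769742 to 101785371, minus strand) had 74.4 and 73.8 TPM in the controls, 77.1 and 77.7 TPM with Rbbp4 OE and 90.0 and 95.2 TPM with Rbbp7 OE. Control and Rbbp4 OE were close, and both Rbbp7 OE libraries stood above them. On the log2 scale the change was 0.32 in Rbbp7 OE (SE 0.060, unadjusted p = 0.00172, adjusted p = 0.106 with limma), the smallest p of a member in that comparison, with a TPM ratio of 1.25. In Rbbp4 OE it was 0.063 (adjusted p = 0.532 with limma), and -0.088 with a GC and length correction. Between the lines it was -0.25 (95% interval -0.40 to -0.11, adjusted p = 0.131 with limma).

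Etv5 (ENSMUSG00000013089, chromosome 16, 22381309 to 22439719, minus strand) had 133 and 149 TPM in the controls. Its level was 134 and 137 TPM with Rbbp4 OE and 150 and 153 TPM with Rbbp7 OE. The Rbbp7 OE values lay just above the higher control, and the Rbbp4 OE values lay between the controls. Its log2 fold change was 0.11 in Rbbp7 OE (95% interval -0.058 to 0.27, adjusted p = 0.503 with limma) and 0.027 without control replicate 1 and 0.19 without control replicate 2. In Rbbp4 OE it was -0.049 (95% interval -0.22 to 0.12, adjusted p = 0.680 with limma) and changed sign with 4 alternative settings, among them median-of-ratios scaling at 0.052. The ratio of Etv5 to Etv4 TPM was 1.78 and 2.01 in the controls, 1.74 and 1.76 with Rbbp4 OE and 1.66 and 1.61 with Rbbp7 OE.

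The immediate early genes were low or uneven. Egr1 (ENSMUSG00000038418), which encodes a zinc finger transcription factor, had 0.20 and 0.18 TPM in the controls, 0.15 and 0.56 TPM with Rbbp4 OE and 0.27 and 0.42 TPM with Rbbp7 OE. Its values stayed under 1 TPM throughout, the 2 Rbbp4 OE libraries spanned those of every other group, and it was not tested. Ier3 (ENSMUSG00000003541, chromosome 17, 35821684 to 35822923, plus strand), a stress- and ERK-inducible gene, had 4.24 and 4.57 TPM in the controls, 4.17 and 5.14 TPM with Rbbp4 OE and 11.5 and 3.36 TPM with Rbbp7 OE. Its replicates in Rbbp7 OE held both the highest and the lowest value of all libraries. The log2 fold change there was 0.45 (SE 0.46, adjusted p = 0.699 with limma), and -0.31 without replicate 1, the library with the high Col3a1 level. In that library Fosl1, an AP-1 gene chosen after its values were seen, had 2.62 TPM against 0.12 to 0.73 TPM elsewhere. What part a few cells of another type have in these values was not tested.

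Other genes of the route were examined as a list of 74 ligands, receptors, adaptors, kinases, inhibitors and targets, of which Spry3 was not matched and 62 passed the filter. In Rbbp4 OE against control 10 of the 62 (16.1%) had an adjusted p under 0.05 with limma, 2 higher and 8 lower, beside 11.4% of all genes, 3.29% higher and 8.07% lower. Without 1 library the count of 10 became 0 (either Rbbp4 OE library or Rbbp7 OE replicate 2), 1 (Rbbp7 OE replicate 1) or 2 (control replicate 2), and stayed at 10 without control replicate 1. In each of the other comparisons the limma count was 0. An unadjusted p under 0.05 with limma was found for 16 of the 62 list genes in Rbbp7 OE (11 higher and 5 lower), beside 15.4% of all genes. Between the lines it was found for 12 of the 62, all lower in Rbbp4 OE, beside 19.0% of all genes. The share of all genes lower by this rule was not counted there, and the median over all genes was -0.082. The median log2 fold change of the list was -0.053 in Rbbp4 OE, beside -0.077 over all genes, and 0.023 in Rbbp7 OE, beside -0.0037. Split by role, the Rbbp4 OE median was -0.32 for adaptors and RAS cycle, -0.40 for the kinase cascade and -0.29 for ligands. It was 0.31 for receptors, -0.024 for inhibitors, 0.056 for ERK targets and 0.045 for ETS factors and their repressor. The Rbbp7 OE medians were -0.085, 0.0038, -0.096, 0.087, 0.17, 0.38 and 0.15 in the same order.

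By role, calls in Rbbp4 OE were few. Of 13 tested adaptor and RAS-cycle genes 3 fell, where 8.07% of all genes were called lower: the RAS gene Hras, the docking adaptor Gab1, and Ptpn11, which encodes the phosphatase SHP2. Gab1 went from 67.7 and 78.7 TPM in control to 48.5 and 48.4 TPM, a log2 fold change of -0.58 (SE 0.085, adjusted p = 0.0161 with limma). Of 11 tested kinase-cascade genes 2 fell, against the same share of all genes. Mapk3, the gene of ERK1, had a log2 fold change of -0.21 (adjusted p = 0.106 with limma), and the MEK genes Map2k1 and Map2k2 had -0.42 (adjusted p = 0.0895 with limma) and -0.076 (adjusted p = 0.547 with limma). Over the alternative settings Mapk3 ranged from -0.35 to -0.11 and Map2k1 from -0.57 to -0.27.

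Among 4 tested ligands 1 was called lower and 1 higher in Rbbp4 OE, against 8.07% and 3.29% of all genes. Fgf4, the main autocrine FGF of mESCs, fell by 0.45 on the log2 scale (SE 0.082, adjusted p = 0.0255 with limma). Its level was 63.6 and 72.4 TPM in the controls, 49.3 and 49.5 TPM with Rbbp4 OE and 50.5 and 52.3 TPM with Rbbp7 OE, so both lines lay below the controls. Fgf17 rose in Rbbp4 OE, from 1.22 and 1.17 TPM to 3.43 and 2.42 TPM. Its log2 fold change was 0.83 (SE 0.20, adjusted p = 0.0492 with limma) and 0.35 with a pseudocount of 5. With Rbbp7 OE Fgf17 had 2.40 and 2.39 TPM, also above both controls. The log2 fold change there was 0.63 (SE 0.20, adjusted p = 0.2225 with limma). Neither tested receptor of the list and none of the 10 tested further inhibitors was called.

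Of 14 tested ERK target genes outside the members 1 was called higher and 1 lower in Rbbp4 OE, against 3.29% and 8.07% of all genes. Junb, an AP-1 gene, rose by 0.37 (adjusted p = 0.0474 with limma). After the GC and length correction its change was 0.19 (adjusted p = 0.156 with limma). With Rbbp7 OE Junb also lay above both controls, by 0.33 (adjusted p = 0.182 with limma). Ccnd1, the cyclin D1 gene, fell by 0.47 in Rbbp4 OE on the log2 scale (SE 0.084, adjusted p = 0.0246 with limma). Ccnd1 had 47.9 and 52.8 TPM in the controls, 36.2 and 35.8 TPM with Rbbp4 OE and 48.1 and 44.1 TPM with Rbbp7 OE. Of 8 tested ETS genes and repressors 1 was called lower in Rbbp4 OE, against 8.07% of all genes. Ets2 fell by 0.92 (SE 0.14, adjusted p = 0.0182 with limma), a TPM ratio of 0.498. Its level was 15.3 and 19.7 TPM in the controls, 8.30 and 9.11 TPM with Rbbp4 OE and 11.9 and 11.7 TPM with Rbbp7 OE. Cic, which represses Etv4, Etv5 and Dusp6 until ERK relieves it, had a log2 fold change of -0.070 (adjusted p = 0.549 with limma) and 0.031 with median-of-ratios scaling.

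**Figure D4:**
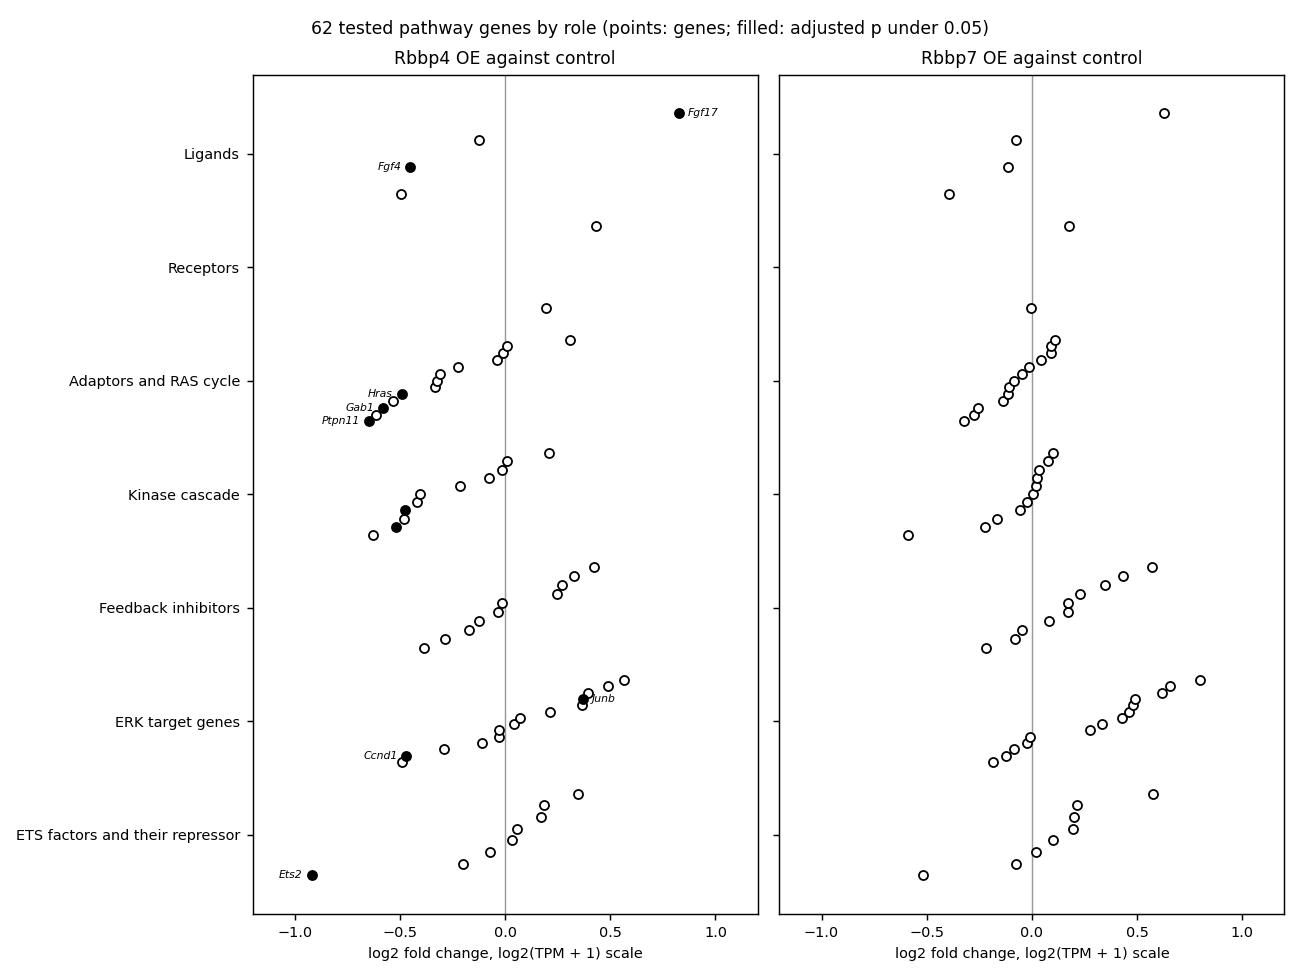
Log2 fold change on the log2(TPM + 1) scale (x axis) of the 62 tested list genes, grouped by role (y axis), in each overexpression line against the same controls; points are genes, spread vertically within a role, and filled points have an adjusted p under 0.05. In Rbbp4 OE 10 points are filled, 8 of them below 0 and with Ets2 at -0.92, while Rbbp7 OE has no filled point.

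Some marker genes were called in the same comparison. In Rbbp4 OE, 3 of 7 pluripotency markers were called, where 11.4% of all genes were, 3.29% higher and 8.07% lower. Pou5f1 was higher, with a log2 fold change of 0.25 (adjusted p = 0.0334 with limma). Nanog and Tfcp2l1 were lower, at -0.23 and -0.52 (adjusted p = 0.0393 and 0.0330 with limma). Of the 3 tested fibroblast markers Thy1 was called, higher by 0.96 (adjusted p = 0.0192 with limma). Thy1 was the only fibroblast marker with at least 1 TPM in every library, and Col1a1, Col1a2 and Col3a1 had at most 0.42, 0.07 and 0.03 TPM with Rbbp4 OE, none above the higher control. Their part in the member differences was not tested.

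For each tested member the genes with the most similar profile over the 6 libraries were found by Pearson correlation of log2(TPM + 1), given as a description. With 6 libraries in 3 groups many genes reach high values: between 78 and 1000 genes had r above 0.9 with a given member. Spry4 was most like the transporter gene Abcc5 (r = 0.994) and Gramd4 (0.993), and Spry2 was most like Ap5b1 (0.999) and Mcam (0.998). For Dusp6 these were Tsc22d1 (0.991) and Gm10250 (0.990), for Etv4 Cdc42ep4 (0.991) and Sept3 (0.989), and for Etv5 Acbd5 (0.992) and Cyba (0.992). For Spred1 they were the cohesin gene Rad21 (0.999) and Mdc1 (0.998), and for Fgfr1 Zfp980 (0.996) and Thy1 (0.993). For Fgfr2 they were Pdrg1 (0.995) and Atp6v1g1 (0.990), and for Ier3 Ly6e (0.994) and Gm42047 (0.994). Among the members themselves, over the same 6 libraries, Spry2 and Fgfr1 had r = 0.963, Dusp6 and Spry4 had r = 0.930, and Spry4 and Spry2 had r = -0.177.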

How the data were processed

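The authors trimmed the reads, aligned them with STAR to mm10 and estimated expression with RSEM, and they deposited 1 table of TPM values per library. TPM removes depth, and the strand setting of the counting is not given in the sources used here. The study used a count model, which TPM does not allow, so limma-trend (limma 3.58.1, R 4.3.3) was fitted to log2(TPM + 1) over 6 libraries and the 14156 genes whose mean TPM reached 0.5, leaving 3 residual and 3.103 prior degrees of freedom. Gene names and loci came from GENCODE M21 on GRCm38, an earlier release than the one named in the study's methods. Members, pathway list and marker lists were chosen with earlier results of these data known. Named were all members, Rbbp4, Rbbp7, the fixed pathway genes Fgf4, Mapk3, Map2k1, Map2k2, Cic and Ccnd1, pathway genes with an adjusted p under 0.05 (2 kinase-cascade genes under this rule are not reported here), and the 2 most correlated genes of each member. Same-numbered replicates did not deviate together (correlations of -0.026, 0.034 and -0.031), so the numbers were not taken as pairs. As alternatives, each library was left out, the pseudocount was 0.1 or 5, the filter was dropped or raised to 5 TPM, values were scaled by median of ratios or by quantiles, the replicate number was a block, only the compared groups were fitted, and the variance trend was made robust or dropped. A GC and length correction was chosen after seeing the data. Figures were drawn with matplotlib 3.10.9.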

Additional observations from a re-analysis of the deposited data

Results flagged for a closer look

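Spry4 was flagged because its response differed between the lines by a direct test: Rbbp4 OE minus Rbbp7 OE was -1.18 on the log2 scale (limma adjusted p = 0.0499). Dusp6 and Fgfr2 were flagged because both libraries of 1 line lay above both controls and both libraries of the other lay below them. Lying clear of the controls was common, at 57.9% of all genes in Rbbp4 OE and 44.5% in Rbbp7 OE. The share of all genes on opposite sides of the controls was not counted. For Dusp6 the lines differed by -0.46 (limma adjusted p = 0.140) and for Fgfr2 by 0.38 (limma adjusted p = 0.310), neither past the threshold.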

How the results depend on the processing

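Of 453 member fold changes recomputed under alternatives, 399 kept direction and side of the threshold, 43 kept direction only and 11 changed sign. A result not called in the main fit had no call to lose, and all 43 were results that lost theirs. With no library left out, the Rbbp4 OE call was kept in 8 of 11 settings for Spry2 and 7 of 11 for Fgfr1. Spry4 kept its call in 4 of 10 settings in Rbbp4 OE and in 4 of 10 between the lines. Members called at an adjusted p under 0.05 in Rbbp4 OE against control fell from 3 to 0 with no filter or the 2-group fit. The count was 1 with the replicate block or no trend. It was 2 with a pseudocount of 5, a filter at 5 TPM, median-of-ratios scaling or the GC and length correction. No such call was kept in a fit without 1 library. The Spry4 call between the lines (1 member) became 0 with a pseudocount of 5, no filter, a filter at 5 TPM (Spry4 then left out), median-of-ratios scaling, the replicate block, the 2-group fit, the GC and length correction, and in every fit without 1 library. The pathway count of 10 in Rbbp4 OE became 2 with no filter, 6 with the replicate block, 2 with the 2-group fit and 0 with no trend. It was 9 with a pseudocount of 5 and 8 with quantile normalization or the GC and length correction. Without 1 library it varied widely, as given above. The replicate block changed no other count of member or pathway calls. In Rbbp4 OE against control, log2 fold changes that turned were Dusp6 at 0.016 (quantile normalization), Etv4 at -0.088 (GC and length correction), Etv5 at 0.052 (median-of-ratios scaling), 0.0076 (quantile normalization), 0.0327 (without control replicate 2) and 0.0045 (GC and length correction), and Ier3 at -0.0635 (without Rbbp4 OE replicate 2) and -0.0642 (GC and length correction). Cic turned to 0.031 and 0.024 (median-of-ratios scaling, quantile normalization) and Map2k2 to 0.025 (median-of-ratios scaling). In Rbbp7 OE against control Spred1 turned to -0.16 without control replicate 1 and Ier3 to -0.31 without Rbbp7 OE replicate 1, which also turned Ier3 between the lines to 0.37. Without 1 library, Spred1 in Rbbp7 OE ranged from -0.16 to 0.26, Etv5 in Rbbp4 OE from -0.13 to 0.0327, and Ier3 from -0.0635 to 0.18 in Rbbp4 OE, -0.31 to 1.21 in Rbbp7 OE and -1.15 to 0.37 between the lines. Fits without 1 library assume that the lone library of its group varies like the other groups. The causes were not tested. Depth is unknown, so no detection limit can be given for Egr1.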
